A study of Mus musculus with 16 samples.

Results

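The 10 genes described here are *Nfe2l2*, which encodes the transcription factor NRF2, 7 antioxidant genes known as its targets (*Hmox1*, *Nqo1*, *Gclm*, *Gclc*, *Txnrd1*, *Srxn1* and *Slc7a11*) and the metallothionein genes *Mt1* and *Mt2*. They were chosen by name, with earlier results of these data known, and all 10 of 10 were present among the 18167 genes of the table. Their levels were read in spinal cord RNA of 16 mice, with 1 library per mouse. Each group is given by its letters, W or M for the transgene and Y or O for young or old.

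The study sequenced polyadenylated RNA of spinal cord from mice that carry human profilin1, a protein that binds actin, to compare a model of amyotrophic lateral sclerosis with its control before symptoms and at end stage. M mice are Tg(Prnp-PFN1*G118V)838Kiaei/J on C57BL/6N and carry the mutant human gene, and W mice are Tg(Prnp-PFN1)850Kiaei/J on C57BL/6N and carry the unchanged human gene. The 3 WY mice and the 3 MY mice were 50 days old. The 5 WO mice were 190, 190, 190, 294 and 294 days old, and the 5 MO mice, taken when they could no longer right themselves, were 198, 190, 245, 224 and 175 days old. All 16 were male per the labels and had no treatment stated. In both strains the transgene was driven by a mouse *Prnp* promoter, so W mice also carry human profilin1, and each genotype is represented by 1 transgenic line. The mutation, the amount of transgene expression and other differences between the lines therefore cannot be told apart. Replicates 4 and 5 of WO and of MO formed library batch 2, and the other 12 mice formed batch 1. The batch 2 mice of WO were also the 2 oldest, so age and batch cannot be told apart within WO.

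NRF2 is held at a low level by KEAP1, which hands it to an ubiquitin ligase, and it builds up when electrophiles or oxidants modify KEAP1. It then pairs with small MAF proteins on antioxidant response elements and raises genes for glutathione synthesis, thioredoxin, quinone reduction and haem breakdown, and in nervous tissue this response is known mainly from glia. Metallothioneins are small cysteine-rich proteins that bind zinc and copper. Their genes respond to metals through the factor MTF1 on metal response elements, and also to glucocorticoids and inflammatory signals.

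Before any result, the labels were checked against marker genes, and 1 mouse went against its label. MO5 is labelled male, yet *Xist*, the RNA that coats an inactive X chromosome, was at 3.21 log2(1 + FPKM) in MO5 and at no more than 0.37 in each of the other 15 mice. The Y-linked gene *Ddx3y* was at 1.95 in MO5 and at 4.06 or more in every other mouse, and *Uty*, *Eif2s3y* and *Kdm5d* were also lowest in MO5. Another mouse, WO4, stood apart in the myelin gene *Mbp*, at 5.36 against 12.16 or more in the other 15 mice. Results that rest on MO5 or WO4 are therefore given with and without that mouse. The tissue label was checked with position genes. *Hoxc6*, *Hoxc8*, *Hoxc9* and *Hoxc10*, which mark positions along the cord, were at 2.51 or more in every mouse, whereas the forebrain gene *Emx1* was at 0.20 or less.

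Values are log2(1 + FPKM), where FPKM is fragments per kilobase of transcript, scaled to the mapped fragments of the library, after the authors' correction for batch. A gene was counted as changed when limma gave a false discovery rate (FDR) of at most 0.05 over all 18167 genes and a fold change of at least 1.5 on this scale, which understates the fold in FPKM of genes at low levels. Fold changes are the second group minus the first. How many reads support each value is not known, and precision is given only by the spread between mice.

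At end stage, *Nfe2l2*, *Hmox1*, *Mt1* and *Mt2* were higher in the mutant mice than in either younger mutant mice or old control mice, and *Nqo1* was also higher, by less than 1.5-fold against the old control mice. In these 5 genes all 5 MO mice were above all 11 other mice, and 7.58% of all genes in the table showed this same order. The genes for glutathione synthesis, *Gclm* and *Gclc*, the cystine carrier *Slc7a11* and the reductase *Txnrd1* did not pass the test in any comparison. *Srxn1* passed the FDR alone in WO vs. MO. The comparisons MY vs. MO and WO vs. MO use the same 5 MO mice, so their values are set side by side and are not independent.

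**Figure D1:**
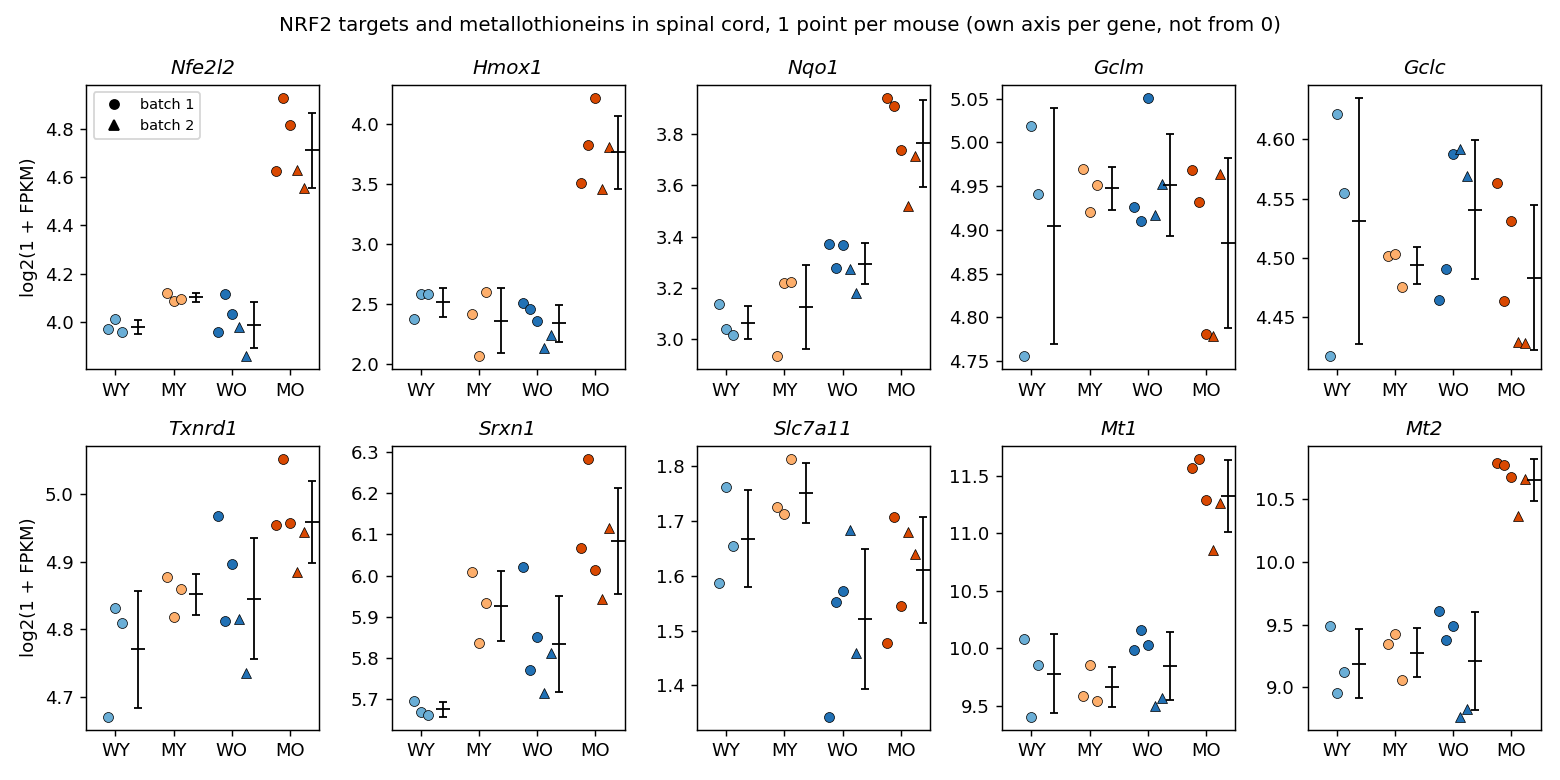
Levels of the 10 genes in log2(1 + FPKM) in each mouse, by group WY, MY, WO and MO, with each group's mean and standard deviation. The MO mice lie above all other mice for *Nfe2l2*, *Hmox1*, *Nqo1*, *Mt1* and *Mt2*, whereas the groups overlap for *Gclm* and *Gclc*.

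MY vs. MO asks how the mutant cord differs between the age before symptoms and end stage. Of the 10 genes, 5 changed, all higher in MO, beside 4.11% of all genes higher and 0.787% lower. With the FDR alone 5 of the 10 passed, beside 25.6% of all genes in either direction. The median log2 fold change of the 10 genes was 0.38, beside 0.00 for all genes. WO vs. MO asks how the old mutant cord differs from the old control cord. Here 4 of the 10 changed, all higher in MO, beside 4.08% of all genes higher and 0.517% lower. With the FDR alone 6 of the 10 passed, beside 27.9% of all genes, and the median was 0.36, beside 0.00 for all genes.

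WY vs. WO asks what age does in the control line, and WY vs. MY asks how the mutant line differs from the control line before symptoms. In limma's test 0 of the 10 genes changed in WY vs. WO, beside 0.253% of all genes (46 genes), and 0 passed the FDR alone, beside 1.12%. An unadjusted p under 0.05 was found there for 2 of the 10 and for 13.5% of all genes. In WY vs. MY 0 of the 10 changed in limma's test, beside 1 gene of the whole table, 0.0055%, and 2 of the 10 had an unadjusted p under 0.05, beside 7.16% of all genes. The groups did not overlap for 2 of the 10 genes in WY vs. WO, beside 9.67% of all genes. They did not overlap for 2 of the 10 in WY vs. MY, beside 13.7% of all genes. A test that is not passed does not show that the levels were equal, so 95% confidence intervals are given with the genes.

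The test of whether the change from young to old differed between the genotypes is the interaction, (MO - MY) - (WO - WY), over all 16 mice. It was passed by 4 of the 10 genes, all with a larger increase in M mice, beside 4.65% of all genes in that direction and 0.963% in the other. With the FDR alone 5 of the 10 passed, beside 17.7% of all genes. The median interaction of the 10 genes was 0.22, beside 0.01 for all genes.

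**Figure D2:**
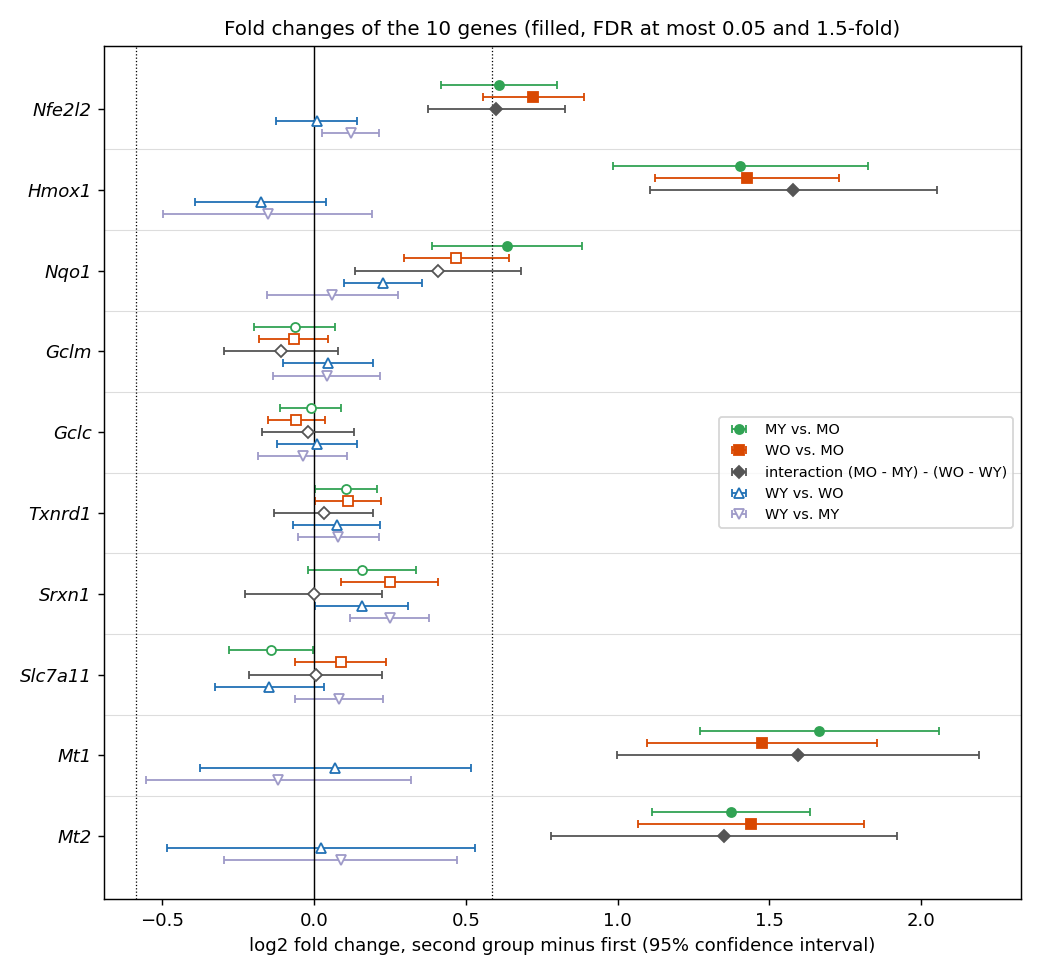
Log2 fold changes of the 10 genes in 4 comparisons and the interaction, each with its 95% confidence interval on the horizontal axis, where dotted lines mark a 1.5-fold change. Filled symbols passed both thresholds, which holds for *Nfe2l2*, *Hmox1*, *Nqo1*, *Mt1* and *Mt2* in MY vs. MO.

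*Nfe2l2*, the regulator itself, lies on the minus strand of chromosome 2 (GRCm38, 75675513 to 75704641). Its levels were 4.63, 4.93, 4.82, 4.63 and 4.56 in MO1 to MO5 and 4.12, 4.09 and 4.10 in MY1 to MY3. In WO1 to WO5 they were 3.96, 4.12, 4.03, 3.98 and 3.86, and in WY1 to WY3 they were 3.97, 4.01 and 3.96. The MO mice formed a group of their own, with MO2 highest, and the lowest of them was above the highest of the other 11. *Nfe2l2* rose by 0.61 in MY vs. MO (95% CI 0.42 to 0.80, limma FDR 0.00151), in 5 of 5 MO mice. Against WO it was higher by 0.72 (95% CI 0.56 to 0.89, limma FDR 7.9e-05), with 5 of 5 MO mice above all WO mice. The interaction was 0.60 (95% CI 0.38 to 0.83, limma FDR 0.00134). The increase in MY vs. MO lay close to the 1.5-fold threshold, at 0.56 without MO2 and 0.58 without MO3, both under it. The interaction also fell under that threshold when a mouse was left out, at 0.55 without MO2, 0.57 without MO3, 0.57 without WO5 and 0.58 without WY2. Without MO5 the differences were 0.65 in MY vs. MO, 0.76 in WO vs. MO and 0.64 for the interaction, and without WO4 the last 2 were 0.72 and 0.60. Within batch 1 the difference in WO vs. MO was 0.75 and within batch 2 it was 0.67, and within batch 1 that in MY vs. MO was 0.69. All 3 MY mice were above all WY mice, by 0.12 on average (95% CI 0.03 to 0.22), which did not pass (limma FDR 0.648).

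*Hmox1* encodes haem oxygenase 1, which opens haem to biliverdin, iron and carbon monoxide. It lies on chromosome 8 (75093621 to 75100589, plus strand). Its levels in MO1 to MO5 were 3.51, 3.82, 4.22, 3.46 and 3.81. They were 2.41, 2.07 and 2.60 in MY1 to MY3, then 2.51, 2.46, 2.35, 2.13 and 2.24 in WO1 to WO5. In WY1 to WY3 they were 2.37, 2.59 and 2.58. MO3 was the highest mouse and MO4 the lowest of its group, still above every mouse of the other 3 groups, which overlapped one another. *Hmox1* rose by 1.40 in MY vs. MO (95% CI 0.98 to 1.82, limma FDR 0.00122), in 5 of 5 MO mice. Against WO it was higher by 1.43 (95% CI 1.12 to 1.73, limma FDR 4.66e-05), again in 5 of 5. Its interaction was 1.58 (95% CI 1.11 to 2.05, limma FDR 0.000264). The difference in WO vs. MO was 1.41 within batch 1 and 1.45 within batch 2. Without MO5 it was 1.41, without WO4 1.38, and the interaction was 1.57 and 1.53 in the same order. MY vs. MO gave 1.39 without MO5 and 1.49 within batch 1.

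*Nqo1* encodes a quinone reductase that uses NADH or NADPH. The gene is on chromosome 8 (107388225 to 107403206, minus strand). Its levels were 3.94, 3.91, 3.74, 3.52 and 3.71 in MO1 to MO5 and 2.94, 3.22 and 3.22 in MY1 to MY3. In WO1 to WO5 they were 3.37, 3.28, 3.37, 3.27 and 3.18, and in WY1 to WY3 they were 3.14, 3.04 and 3.02. MO4, the lowest MO mouse, was above WO1 and WO3, the highest of the others, and MY1 was the lowest of all 16. *Nqo1* rose by 0.64 in MY vs. MO (95% CI 0.39 to 0.88, limma FDR 0.00387), in 5 of 5 MO mice. Without MY1 this was 0.54, under 1.5-fold (limma FDR 0.0203), whereas it was 0.65 without MO5 and 0.74 within batch 1. In WO vs. MO *Nqo1* was higher by 0.47 (95% CI 0.30 to 0.64, limma FDR 0.00129), which passed the FDR and not the fold threshold. That difference was 0.52 within batch 1 and 0.39 within batch 2, 0.48 without MO5 and 0.46 without WO4. In WY vs. WO all 5 WO mice were above all WY mice, by 0.23 on average (95% CI 0.10 to 0.36), which did not pass (limma FDR 0.112, unadjusted p 0.00323). The interaction of 0.41 (95% CI 0.14 to 0.68) passed the FDR alone (limma FDR 0.0384), and was 0.42 without MO5 (FDR 0.0455). That pass was lost on leaving out any of 9 mice, with an FDR of 0.0506 without MO1, 0.0634 without MO2, 0.0542 without MO3 and 0.121 without MY1. It was 0.0571 without WO2, 0.0597 without WO4, 0.0667 without WO5, 0.0988 without WY1 and 0.0544 without WY3.

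*Srxn1* encodes sulfiredoxin, which restores overoxidized peroxiredoxins, and lies on chromosome 2 (152105516 to 152111376, plus strand). Its levels were 6.07, 6.28, 6.01, 5.94 and 6.11 in MO1 to MO5 and 6.01, 5.84 and 5.93 in MY1 to MY3. They were 6.02, 5.77, 5.85, 5.72 and 5.81 in WO1 to WO5 and 5.70, 5.67 and 5.66 in WY1 to WY3. The WY mice were the lowest of all 16 and lay close together, whereas MO overlapped MY and WO. In WO vs. MO *Srxn1* was higher by 0.25 (95% CI 0.09 to 0.41, limma FDR 0.0258), under 1.5-fold, with 3 of 5 MO mice above all WO mice. This pass was lost without MO2 (FDR 0.0505), MO5 (0.0533), WO2 (0.0588), WO4 (0.0634) or WO5 (0.0580). The difference was 0.24 within batch 1, 0.26 within batch 2, 0.24 without MO5 and 0.22 without WO4. Both WO and MY lay wholly above WY, by 0.16 (95% CI 0.00 to 0.31, limma FDR 0.353) and 0.25 (95% CI 0.12 to 0.38, limma FDR 0.534), and neither passed. In MY vs. MO the difference was 0.16 (95% CI -0.02 to 0.34, limma FDR 0.181), and the interaction was 0.00 to 2 decimals (95% CI -0.23 to 0.23).

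*Txnrd1* encodes the thioredoxin reductase of the cytosol and lies on chromosome 10 (82833951 to 82897712, plus strand). Its levels ran from 4.67 to 4.83 in WY, 4.82 to 4.88 in MY, 4.74 to 4.97 in WO and 4.88 to 5.05 in MO. It was 0.11 higher in MO than in MY (95% CI 0.00 to 0.21, limma FDR 0.121) and 0.11 higher than in WO (95% CI 0.00 to 0.22, limma FDR 0.117). MO lay just above MY with no overlap, and overlapped WO, in which WO1 was highest. Without WO1 the difference from WO was 0.14 and passed the FDR (0.0444).

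*Gclm* and *Gclc* encode the modifier and the catalytic subunit of glutamate-cysteine ligase, the first step of glutathione synthesis. *Gclm* lies on chromosome 3 (122245557 to 122270732, plus strand) and *Gclc* on chromosome 9 (77754535 to 77794485, plus strand). *Gclm* ran from 4.76 to 5.05 over all 16 mice, with a mean of 4.88 in MO and 4.95 in WO. *Gclc* ran from 4.42 to 4.62, with a mean of 4.48 in MO and 4.54 in WO. All groups overlapped for both genes. For *Gclm* the difference was -0.06 in MY vs. MO (95% CI -0.20 to 0.07) and -0.07 in WO vs. MO (95% CI -0.18 to 0.05). For *Gclc* it was -0.01 (95% CI -0.11 to 0.09) and -0.06 (95% CI -0.15 to 0.04). All 4 intervals lie well inside a 1.5-fold change, which is 0.58 on this scale.

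*Slc7a11* encodes the cystine carrier of the cystine-glutamate exchanger and lies on chromosome 3 (49892526 to 50443614, minus strand). It was the lowest of the 10 genes, from 1.34 in WO1 to 1.81 in MY3. All MO mice were below all MY mice, by 0.14 on average (-0.14, 95% CI -0.28 to -0.00), which did not pass (limma FDR 0.131). It passed the FDR under quantile normalization, at -0.26 with an FDR of 0.0216. In WO vs. MO the groups overlapped, with a difference of 0.09 (95% CI -0.06 to 0.24, limma FDR 0.384).

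*Mt1* and *Mt2* encode the metallothioneins made in most tissues, and they had the highest mean levels of the 10 genes in every group. *Mt1* was at 11.57, 11.65, 11.29, 10.85 and 11.26 in MO1 to MO5 and at 9.59, 9.86 and 9.54 in MY1 to MY3. It was at 9.98, 10.16, 10.03, 9.50 and 9.57 in WO1 to WO5 and at 10.08, 9.40 and 9.85 in WY1 to WY3. MO4 was the lowest MO mouse and was above WO2, the highest of the other 11, which overlapped across their 3 groups. *Mt1* rose by 1.66 in MY vs. MO (95% CI 1.27 to 2.06, limma FDR 0.000492), in 5 of 5 MO mice. It was higher than in WO by 1.48 (95% CI 1.10 to 1.85, limma FDR 0.000144), in 5 of 5, and its interaction was 1.59 (95% CI 1.00 to 2.19, limma FDR 0.00132). The difference from WO was 1.45 within batch 1, 1.52 within batch 2, 1.49 without MO5 and 1.39 without WO4. MY vs. MO gave 1.68 without MO5 and 1.84 within batch 1, and the interaction was 1.61 without MO5 and 1.51 without WO4.

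*Mt2* was at 10.79, 10.77, 10.67, 10.37 and 10.66 in MO1 to MO5 and at 9.35, 9.43 and 9.06 in MY1 to MY3. It was at 9.61, 9.38, 9.49, 8.77 and 8.82 in WO1 to WO5 and at 9.49, 8.96 and 9.12 in WY1 to WY3. Again every MO mouse was above the other 11, and MO4 was lowest within MO, as for *Mt1*. *Mt2* rose by 1.37 in MY vs. MO (95% CI 1.11 to 1.63, limma FDR 0.00027), in 5 of 5 MO mice. It was higher than in WO by 1.44 (95% CI 1.07 to 1.81, limma FDR 0.000152), in 5 of 5, and its interaction was 1.35 (95% CI 0.78 to 1.92, limma FDR 0.00311). The difference from WO was 1.25 within batch 1, 1.72 within batch 2, 1.44 without MO5 and 1.33 without WO4. MY vs. MO gave 1.37 without MO5 and 1.47 within batch 1, and the interaction was 1.35 without MO5 and 1.24 without WO4. For both metallothioneins the intervals of WY vs. WO (-0.38 to 0.52 for *Mt1*, -0.48 to 0.53 for *Mt2*) were wide beside those of *Gclm* and *Gclc*.

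Levels also differed between the batches within a group after the authors' correction. In WO both batch 2 mice, the 2 oldest, were below all batch 1 mice for *Mt1* (-0.53 on average), *Mt2* (-0.70), *Hmox1* (-0.25) and *Nqo1* (-0.11). In MO both batch 2 mice were below all batch 1 mice for *Mt1* (-0.45), *Mt2* (-0.23), *Nqo1* (-0.25), *Txnrd1* (-0.07) and *Gclc* (-0.09). WY and MY hold batch 1 mice only, so within-batch values of their comparisons rest on batch 1 alone.

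FPKM is per kilobase, so the levels of the 10 genes can be set in order within a group. In WY the order of mean levels was *Mt1* 9.78 ± 0.34 (SD, n = 3), *Mt2* 9.19 ± 0.27, *Srxn1* 5.68 ± 0.02, *Gclm* 4.90 ± 0.14, *Txnrd1* 4.77 ± 0.09, *Gclc* 4.53 ± 0.10, *Nfe2l2* 3.98 ± 0.03, *Nqo1* 3.07 ± 0.06, *Hmox1* 2.51 ± 0.12 and *Slc7a11* 1.67 ± 0.09. *Mt1* overlapped *Mt2* there, and *Gclm* overlapped *Txnrd1*. In MO the order was *Mt1* 11.32 ± 0.31 (SD, n = 5), *Mt2* 10.65 ± 0.17, *Srxn1* 6.08 ± 0.13, *Txnrd1* 4.96 ± 0.06, *Gclm* 4.88 ± 0.10, *Nfe2l2* 4.71 ± 0.15, *Gclc* 4.48 ± 0.06, *Hmox1* 3.76 ± 0.30, *Nqo1* 3.76 ± 0.17 and *Slc7a11* 1.61 ± 0.10. *Nfe2l2* thus stood above *Gclc* in mean level in MO and below it in the other groups, although the mice of both genes overlapped in MO. *Hmox1* and *Nqo1* had nearly the same mean in MO, whereas *Nqo1* was above *Hmox1* in every mouse of the other groups. MY and WO had the same order as WY, and within MY no neighbours overlapped.

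The other genes of these pathways were read from 7 lists with 64 genes, of which 63 were present (*Mt4* was not in the table). These lists too were chosen with earlier results of these data known. In MY vs. MO 8 of the 63 changed, all higher, beside 4.11% of all genes higher and 0.787% lower. With the FDR alone 21 of the 63 were higher and 2 lower, beside 25.6% of all genes in either direction, and the median log2 fold change was 0.12, beside 0.00. In WO vs. MO 9 changed, all higher, beside 4.08% of all genes higher and 0.517% lower. By the FDR alone 22 were higher and 2 lower there, beside 27.9% of all genes in either direction, and the median was 0.11, beside 0.00. The interaction was passed by 8, all with a larger increase in M mice, beside 4.65% of all genes in that direction and 0.963% in the other. By the FDR alone 14 passed it in that direction and 1 in the other, beside 17.7% of all genes. In limma's test 0 of the 63 changed in WY vs. WO, where 2 passed the FDR alone, both lower, and 14 had an unadjusted p under 0.05, beside 13.5% of all genes. In WY vs. MY 0 of the 63 changed in limma's test, 0 passed the FDR alone and 8 had an unadjusted p under 0.05, beside 7.16% of all genes. There 3 of the 63 were wholly higher and 9 wholly lower in MY, beside 13.7% of all genes without overlap in either direction. The largest of these differences was that of *Txnip*, at 1.09, from 3.16 to 3.49 in WY and from 4.02 to 4.71 in MY, and it did not pass the FDR. All MO mice were above all other mice in 12 of the 63 genes, beside 7.58% of all genes.

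**Figure D3:**
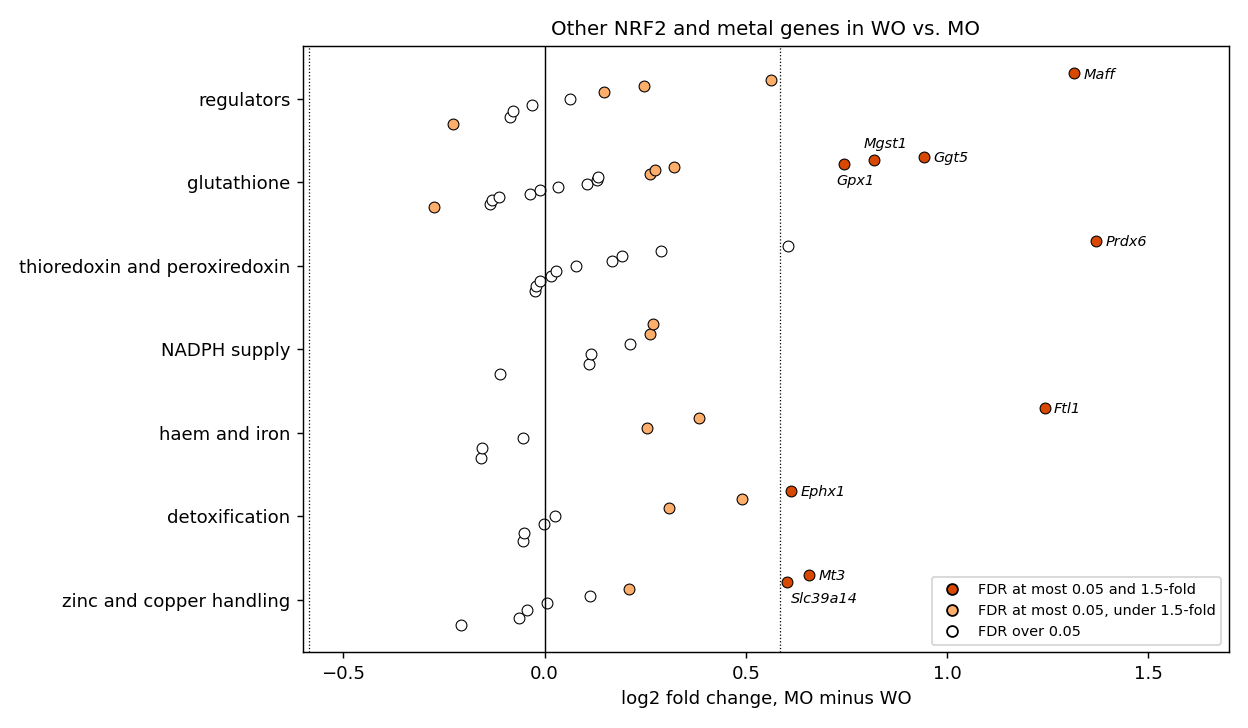
Log2 fold changes in WO vs. MO of the 63 other genes, 1 point per gene, by list on the vertical axis, with dotted lines at a 1.5-fold change. The 9 named genes passed both thresholds, and none did so with a lower level in MO.

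Among the 9 regulators of NRF2 and its partners, 2 rose in MY vs. MO, beside 4.11% of all genes higher, and 1 in WO vs. MO, beside 4.08%. *Maff*, a small MAF partner, rose by 1.43 in MY vs. MO (95% CI 0.81 to 2.05, limma FDR 0.0064) and was 1.32 higher than in WO (95% CI 0.83 to 1.80, limma FDR 0.00127). Its levels were 3.33, 2.72, 2.35, 2.04 and 2.07 in MO1 to MO5 and at most 1.38 in any other mouse, so MO1 stood highest. Its interaction of 1.30 passed (limma FDR 0.0103). *Mafk*, another small MAF, rose by 0.64 in MY vs. MO (95% CI 0.25 to 1.03, limma FDR 0.0265), with MO1 highest at 3.89. That call was not kept with some mice left out. It was 0.52 without MO1, under 1.5-fold, and its FDR was 0.0538 without MO5, 0.0722 without MY1, 0.0717 without MY2 and 0.102 without MY3. In WO vs. MO *Mafk* was 0.56 higher, past the FDR alone, and it passed both thresholds at 0.61 without MO3, 0.66 without MO4 and 0.63 without WO1. Its interaction of 0.66 did not pass (limma FDR 0.0507), and passed without MO3 (FDR 0.0498), MO4 (0.0173), WO1 (0.0362) or WY2 (0.0383). *Keap1*, the inhibitor of NRF2, ran from 4.28 to 4.59 over all mice and did not pass in MY vs. MO (0.13, 95% CI 0.00 to 0.26) or WO vs. MO (0.06, 95% CI -0.05 to 0.17). *Mafg* was lower in WO vs. MO by the FDR alone (-0.23, limma FDR 0.0167), and *Nfe2l1* was the gene whose interaction passed the FDR in the other direction (-0.17, limma FDR 0.0454). That pass was lost without WO4 (-0.18, FDR 0.0561).

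Of the 16 glutathione genes 3 were higher in both comparisons with MO. They were *Ggt5*, a membrane enzyme that cleaves glutathione conjugates (0.92 in MY vs. MO and 0.94 in WO vs. MO), the peroxidase gene *Gpx1* (0.77 and 0.74) and *Mgst1*, a microsomal glutathione transferase (1.00 and 0.82). Each of the 3 had all MO mice above all other mice. Past both thresholds, 4.11% of all genes were higher in MY vs. MO and 4.08% in WO vs. MO. The interaction was 0.85 for *Gpx1* (limma FDR 0.000338), 0.84 for *Mgst1* (limma FDR 0.0255) and 0.72 for *Ggt5* (limma FDR 0.0336). The *Mgst1* interaction did not pass without MY1 (FDR 0.0715), MY3 (0.0605), WY1 (0.0659) or WY3 (0.0667). The *Ggt5* interaction did not pass without MO2 (FDR 0.0562), MO3 (0.0516), MO5 (0.0521), MY1 (0.0852), MY2 (0.0505) or MY3 (0.0706). It also did not pass without WO4 (FDR 0.0545), WO5 (0.0576), WY1 (0.1) or WY3 (0.0504). With the FDR alone 6 of the 16 were higher in MY vs. MO, beside 2377 of all 18167 genes higher (25.6% passed in either direction). In WO vs. MO 6 were higher, beside 2730 of all 18167 genes higher (27.9% passed in either direction). With the FDR alone *Ggt7* was the gene of this list that was lower in WO vs. MO (-0.28, limma FDR 0.00573).

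Of the 11 thioredoxin and peroxiredoxin genes 1 changed, beside 4.11% of all genes higher in MY vs. MO and 4.08% in WO vs. MO. This was *Prdx6*, a peroxiredoxin that uses glutathione. Its level was 8.32 ± 0.21 (SD, n = 5) in MO, with MO3 highest and MO4 lowest, and at most 7.22 in any other mouse. It was higher in MO by 1.28 in MY vs. MO (95% CI 1.02 to 1.53, limma FDR 0.000302) and by 1.37 in WO vs. MO (95% CI 1.16 to 1.59, limma FDR 2.16e-05). Its interaction was 1.43 (limma FDR 4.43e-05). Of the 6 haem and iron genes 1 changed, beside those same shares of all genes. This was *Ftl1*, a ferritin light chain. It was at 9.08, 9.33, 9.74, 9.17 and 9.28 in MO1 to MO5 and at most 8.41 elsewhere. *Ftl1* was higher in MO by 1.33 in MY vs. MO (limma FDR 0.0004), by 1.24 in WO vs. MO (limma FDR 4.02e-05), and its interaction was 1.48 (limma FDR 9.27e-05). Of its stretches of 36 bases 62.6% also occur in other annotated genes, most of them in *Ftl1-ps1*, so which of these genes the reads came from is uncertain.

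Of the 7 detoxification genes 1 changed, beside 4.11% of all genes higher in MY vs. MO and 4.08% in WO vs. MO. This was the epoxide hydrolase gene *Ephx1*, at 0.61 in WO vs. MO (95% CI 0.44 to 0.78, limma FDR 0.000238). It was 0.58 without MO3, 0.58 without MO5 and 0.57 without WO2, under 1.5-fold, and in MY vs. MO it was 0.46 and passed the FDR alone (limma FDR 0.00587). Of the 6 genes that supply NADPH 0 changed and 2 passed the FDR in both comparisons with MO by limma, beside 25.6% of all genes in MY vs. MO and 27.9% in WO vs. MO. An unadjusted p under 0.05 was found for 2 in MY vs. MO, beside 36.7% of all genes, and for 4 in WO vs. MO, beside 38.5%. The 2 past the FDR were *G6pdx* (0.24 in MY vs. MO and 0.26 in WO vs. MO) and *Pgd* (0.21 and 0.27), the dehydrogenases of the pentose phosphate pathway. The *Pgd* pass in MY vs. MO was lost without MO5 (0.19, FDR 0.0614).

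Of the 8 zinc and copper genes *Mt3*, a metallothionein of the nervous system, changed in both comparisons, by 0.68 in MY vs. MO (limma FDR 0.000446) and 0.66 in WO vs. MO (limma FDR 0.000668). *Mt3* was at 9.70, 9.91, 9.79, 9.87 and 9.63 in MO1 to MO5 and at most 9.52 in the other mice. Under quantile normalization its differences were 0.48 and 0.48, under 1.5-fold, with FDR 0.000602 and 0.00125. Its interaction was 0.76 (limma FDR 0.0074), and 0.54 under quantile normalization. *Slc39a14*, a zinc importer, was higher by 0.60 in WO vs. MO (95% CI 0.46 to 0.75, limma FDR 8.6e-05) and by 0.56 in MY vs. MO, which passed the FDR alone. It lay at the fold threshold, at 0.58 in WO vs. MO without MO3 or without WO5 and 0.56 within batch 2. In MY vs. MO it passed both thresholds at 0.62 without MO4, at 0.59 without MY3 and at 0.63 within batch 1. Its interaction of 0.60 fell to 0.58 without MO3, 0.57 without MY2, 0.58 without WO5 and 0.57 without WY2. *Mtf1*, the metal-responsive regulator, was lower in MY vs. MO by the FDR alone (-0.22, limma FDR 0.00338), as was the transporter gene *Slc30a10* (-0.33, limma FDR 0.031). The *Slc30a10* pass was lost without MO5 (-0.31, FDR 0.0599).

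Without MO5 the counts of the 63 genes were 7 in MY vs. MO, 8 in WO vs. MO and 7 for the interaction. Without WO4 they were 9 in WO vs. MO and 7 for the interaction. Without MO5 the differences in WO vs. MO were 1.39 for *Prdx6*, 1.25 for *Ftl1*, 1.42 for *Maff*, 0.76 for *Gpx1*, 0.84 for *Mgst1*, 0.92 for *Ggt5*, 0.70 for *Mt3* and 0.60 for *Slc39a14*. Without WO4 they were 1.36, 1.21, 1.29, 0.72, 0.77, 0.87, 0.62 and 0.59 for the same genes in that order.

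In whole spinal cord a change in the number of cells of a type and a change in the RNA per cell cannot be told apart. Marker genes were therefore read beside these results. Past both thresholds 4.08% of all genes were higher and 0.517% lower in WO vs. MO, and 4.11% higher and 0.787% lower in MY vs. MO. By the FDR alone 27.9% of all genes passed in WO vs. MO and 25.6% in MY vs. MO, in either direction. Among microglial markers *Aif1* (1.75, limma FDR 0.0003), *Cx3cr1* (1.14, limma FDR 9.98e-05) and *Csf1r* (1.28, limma FDR 1.50e-05) were higher in WO vs. MO. *Tmem119* passed the FDR alone (0.49, limma FDR 0.0030), and *P2ry12* did not pass (0.10, limma FDR 0.623). In MY vs. MO *Aif1* (1.88), *Cx3cr1* (0.98), *Csf1r* (1.17) and *Tmem119* (0.60, and 0.56 without MO5) were higher, and *P2ry12* did not pass (-0.02). The level of *Aif1* was 3.72, 4.70, 4.98, 4.34 and 4.24 in MO1 to MO5. It ran from 2.27 to 3.01 in WO, from 2.19 to 2.69 in MY and from 2.72 to 2.95 in WY, so the MO mice stood apart as they did for *Hmox1*. Of 6 astrocyte markers 3 were higher in WO vs. MO and 1 more passed the FDR, and in MY vs. MO 2 were higher and 1 more passed the FDR, with *Gfap* the most abundant. Their summed FPKM was 2602, 3374, 3046, 2492 and 2684 in MO1 to MO5, from 1067 to 1295 in WO, from 1415 to 1473 in MY and from 1528 to 1660 in WY. The part of microglia and astrocytes in the levels of the 10 genes was not tested.

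Of 5 motor neuron markers 1 was lower in WO vs. MO, *Chat* (-0.67, limma FDR 3.13e-05), and 3 more passed the FDR alone. Of the 5, 4 were lower in MY vs. MO by the FDR alone, and *Slc5a7* lost its pass there without MO5 (FDR 0.0509). Their summed FPKM, with *Slc5a7* the most abundant, ran from 42.5 to 53.7 in MO, from 69.8 to 81.5 in WO, from 62.3 to 68.0 in MY and from 43.9 to 65.6 in WY, so WY1, at 43.9, lay within the MO range. Of 4 general neuron markers 3 were lower by the FDR alone in WO vs. MO and the same 3 in MY vs. MO, where *Tubb3* lost its pass without MO5 (FDR 0.0596). Their sums, with *Snap25* the most abundant, ran from 1529 to 1741 in MO, 2031 to 2276 in WO, 1900 to 1989 in MY and 1823 to 1878 in WY. Among oligodendrocyte markers *Mobp* was lower in WO vs. MO by the FDR alone (-0.30, limma FDR 0.0202), whereas *Mog* (-0.30, limma FDR 0.239), *Mag* (-0.33, limma FDR 0.143) and *Mbp* (1.55, limma FDR 0.479) did not pass. The *Mbp* difference rests on WO4, and without that mouse it was 0.03 (FDR 0.982), whereas *Mobp* was at -0.26 (FDR 0.0495). In MY vs. MO *Mog* was lower past both thresholds (-0.93, limma FDR 0.0118) and *Mobp* by the FDR alone (-0.51, limma FDR 0.0024). There *Mag* (-0.59, limma FDR 0.0548) did not pass, but did without MO5 (-0.66, FDR 0.0475), and *Mbp* did not pass (-0.02). The level of *Mbp* was 14.11, 14.14 and 14.22 in the batch 2 mice MO4, MO5 and WO5 and lowest in WO4. In batch 1 it was 12.16, 12.16 and 12.24 in MO1 to MO3 and 12.61, 12.49 and 12.42 in WO1 to WO3. It ran from 12.93 to 13.03 in MY and from 12.92 to 13.23 in WY. The *Mbp* differences given here mix the 2 batches, also without WO4, and do not show that *Mbp* was unchanged. Of 4 endothelial markers 3 were lower in WO vs. MO by the FDR alone. In MY vs. MO 0 of the 4 passed limma's FDR and 1 had an unadjusted p under 0.05, beside 36.7% of all genes. Their sums, with *Cldn5* the most abundant, were 23.2 to 32.1 in MO, 28.7 to 45.8 in WO, 29.1 to 29.4 in MY and 35.1 to 41.7 in WY. In WO vs. MO *Cdh5* was at -0.57, under 1.5-fold, and passed both thresholds without MO5 (-0.60) or without WO4 (-0.64), and *Cldn5* passed the FDR without WO4 (-0.55, FDR 0.0173). The part of these cell types was not tested either.

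Markers of border macrophages summed to at most 1.90 FPKM in any mouse, with *F13a1* the most abundant and 2 of 4 higher by the FDR alone in WO vs. MO and in MY vs. MO, where *Lyve1* lost its pass without MO5 (FDR 0.0913). Markers of Schwann cells (*Pmp2* most abundant), sensory neurons (*Avil*) and skeletal muscle (*Acta1*) summed to at most 0.778, 0.736 and 1.19 FPKM. By the FDR alone *Avil* was higher (0.36) and *Acta1* lower (-0.25) in WO vs. MO. The *Acta1* pass was lost without MO5 (FDR 0.0596) or WO4 (FDR 0.104), and the other 2 sensory markers were at 0.2 or less in every mouse. Also by the FDR alone *Avil* was higher (0.39) and *Pmp2* lower (-0.32) in MY vs. MO. Of 4 fibroblast markers 0 passed limma's FDR and 0 had an unadjusted p under 0.05 in either comparison with MO, with sums from 12.9 to 18.4 over all mice and *Dcn* the most abundant. Among blood markers *Hba-a1* was the most abundant, lowest in MO1 at 3.60, *Hba-a2* and *Hbb-bs* were near 0 in every mouse, and 0 of 4 passed limma's FDR in WO vs. MO, with 1 unadjusted p under 0.05, or in MY vs. MO, with 0. Of the 4 position genes *Hoxc8* was lower in WO vs. MO (-0.43) and *Hoxc10* in MY vs. MO (-0.25), each by the FDR alone. Of 7 genes that respond to glucocorticoids, which also act on metallothionein genes, 0 passed limma's FDR in either comparison with MO. An unadjusted p under 0.05 was found for 2 of the 7 in WO vs. MO, beside 38.5% of all genes. In MY vs. MO it was found for 3 of the 7, beside 36.7% of all genes. The median log2 fold change of the 7 genes was 0.28 in WO vs. MO and 0.56 in MY vs. MO. Their sum, with *Tsc22d3* the most abundant, was 522, 263, 247, 189 and 414 FPKM in MO1 to MO5, 204 to 419 in WO, 205 to 276 in MY and 187 to 257 in WY. The groups overlapped for that sum, and MO1, the highest, was also the highest mouse for *Maff*, *Mafk* and *Mt2*. *Mt1* and *Mt3* were highest in MO2 instead. MO5, second for the sum, was below MO1, MO2 and MO3 for *Mt2*. These *Mt2* levels lay close together, at 10.79 in MO1 beside 10.77 in MO2, and at 10.67 in MO3 beside 10.66 in MO5. MO5 is also a batch 2 mouse, and both batch 2 mice of MO were below its batch 1 mice for *Mt2*. This order of mice therefore carries no reading on glucocorticoids. The part of glucocorticoids in those results was not tested.

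For 4 of the genes the 3 most similar genes were found among 13520 genes by Pearson's r of log2(1 + FPKM) over 16 mice, as a description. The points share the 4 groups, and the MO mice lie apart, so r is also given over the 11 mice outside MO. For *Nfe2l2* they were *Plek* (0.984, and 0.698 outside MO), *Thbs2* (0.984 and 0.735) and *A2m* (0.984 and 0.615). For *Hmox1* they were *Hcls1* (0.989 and 0.860), *Axl* (0.986 and 0.690) and *Dnase2a* (0.982 and 0.592). For *Mt2* they were *Cebpd* (0.987 and 0.896), *Hspb1* (0.986 and 0.908) and *Arhgdib* (0.982 and 0.884). *Srxn1* had lower values with its closest genes, *Rab35* (0.896 and 0.758), *Ensa* (0.888 and 0.691) and *Plekho1* (0.885 and 0.751).

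By position, 4 of the 10 genes lie on chromosome 8, *Hmox1*, *Mt2* (94172664 to 94173568, plus strand), *Mt1* (94179082 to 94180327, plus strand) and *Nqo1*. *Mt2* and *Mt1* are neighbours with 5513 bases between them, in a cluster with *Mt4* and *Mt3* that spans 43131 bases. The exons of *Mt2* overlap those of *Gm45774*, annotated on the other strand, over 432 bases, and 54.6% of the 36-base stretches of *Mt2* are shared with it. The strand setting of the authors' quantification is not given in the sources used here. *Mt1*, *Hmox1*, *Nfe2l2*, *Nqo1*, *Gclc* and *Txnrd1* share 0% of their stretches with another annotated gene, *Srxn1* 0.386%, *Slc7a11* 3.17% and *Gclm* 5.89%.

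Promoters were read because these genes are named for shared response elements. RefSeq promoters on GRCm38.p6 matched 8 of the 10 genes, with no entry for *Hmox1* or *Gclc*. The 250 bases before the start were searched on both strands for the core of the antioxidant response element, TGACNNNGC, and for the core of the metal response element, TGCACNC or TGCGCNC. Of 32851 promoters of this length, 10.2% hold the first core and 21.4% hold either form of the second, 10.4% the A form and 12.5% the G form. The 4 promoters of changed genes are shown 5′ to 3′ on the strand of the gene, with matches in capitals. They are chr2:75704664-75704913 (minus strand) for *Nfe2l2*, chr8:107403206-107403455 (minus strand) for *Nqo1*, chr8:94178839-94179088 (plus strand) for *Mt1* and chr8:94172368-94172617 (plus strand) for *Mt2*.
Nfe2l2: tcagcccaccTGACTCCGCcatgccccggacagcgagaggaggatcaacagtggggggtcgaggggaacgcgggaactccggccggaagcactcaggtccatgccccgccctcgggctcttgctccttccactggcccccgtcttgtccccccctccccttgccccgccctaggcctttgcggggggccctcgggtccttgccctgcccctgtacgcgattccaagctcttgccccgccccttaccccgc
Nqo1: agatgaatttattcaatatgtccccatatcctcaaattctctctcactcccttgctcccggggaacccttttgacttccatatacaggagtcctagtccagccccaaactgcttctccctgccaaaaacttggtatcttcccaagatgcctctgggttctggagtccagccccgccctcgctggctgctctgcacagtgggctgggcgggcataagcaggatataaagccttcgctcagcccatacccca
Mt1: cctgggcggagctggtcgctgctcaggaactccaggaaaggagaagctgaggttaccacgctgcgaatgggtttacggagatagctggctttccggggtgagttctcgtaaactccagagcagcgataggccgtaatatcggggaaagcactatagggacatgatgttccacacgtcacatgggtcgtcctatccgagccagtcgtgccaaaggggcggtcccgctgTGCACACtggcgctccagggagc
Mt2: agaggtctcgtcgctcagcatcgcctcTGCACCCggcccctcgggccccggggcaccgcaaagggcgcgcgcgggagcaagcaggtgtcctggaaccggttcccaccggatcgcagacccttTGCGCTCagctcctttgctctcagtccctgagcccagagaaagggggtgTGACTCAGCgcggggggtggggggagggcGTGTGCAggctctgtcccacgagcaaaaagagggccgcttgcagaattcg
The *Nfe2l2* window holds 1 antioxidant core, which begins 240 bases before the start, and the *Nqo1* window holds neither core. The *Mt1* window holds 1 metal core, 23 bases before the start. The *Mt2* window holds 3 metal cores, 223, 128 and 50 bases before the start, and 1 antioxidant core 79 bases before it, and 1.26% of all promoters hold as many metal cores. Of the genes that did not change, *Gclm* holds 1 antioxidant core and 2 metal cores of which 1 overlaps it, *Srxn1* holds 1 metal core, 1 of the 3 *Txnrd1* promoters holds 1 antioxidant core and *Slc7a11* holds neither. GENCODE gives *Mt1* 3 starts, and the 129 bases from the first to the next hold 4 metal cores and 1 antioxidant core. GENCODE gives *Mt2* 2 starts, and the 196 bases between them hold 3 metal cores and 0 antioxidant cores, and the 46 bases from the RefSeq start to the first GENCODE start hold 1 metal core. A match describes the letters of a window and says nothing of binding.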

How the data were processed

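Spinal cord RNA of 16 mice, 1 library each, was prepared with a stranded mRNA kit and sequenced by the authors. The deposited log2 values, log2(1 + FPKM), were made by the authors with Trimmomatic, TopHat (mm10) and Cufflinks. Genes at 0 in at least 8 mice were removed and parametric ComBat was applied for 2 library batches. Versions, gene annotation and ComBat covariates are not given in the sources used here. Of the deposited values 915 were below 0 and none was exactly 0, so the table holds corrected values. All 16 columns were used, and read depth behind single genes is unknown.

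All 18167 genes were fitted in R 4.3.3 by limma 3.58.1, using lmFit, then eBayes at its defaults, with two-sided tests. Each comparison used its own 2 groups, and the interaction used all 16 mice and 4 group means. P-values were adjusted by Benjamini-Hochberg over all genes. Thresholds were 0.05 for the FDR (at most) and 1.5 for the fold (at least). This fit was tested on simulated data, but the outcome is not reported here and no result rests on it.

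Positions, exons and shared 36-base stretches came from GENCODE M21 on GRCm38, and promoters from RefSeq on GRCm38.p6. Python 3.11.15 and matplotlib 3.10.9 were used.

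All 10 genes were named. Of the 64 other pathway genes, those changed in either comparison with MO were named, at most 4 per list. *Keap1*, *Mafg*, *Nfe2l1*, *Ggt7*, *Txnip*, *G6pdx*, *Pgd*, *Taldo1*, *Idh1*, *Mtf1* and *Slc30a10* were named after their values were seen. For likeness, 3 genes were named for each of 4 members, among genes with a mean of at least 1. The members and all lists were chosen with earlier results of these data known.

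Alternatives tried were quantile normalization, a pseudocount of 0.1, a filter at a mean of 1, a fit within each batch, a batch term, 1 joint fit of the 4 groups, an intensity trend for the prior, treat at 1.2-fold, replicate number as a blocking factor, and omission of single mice. Chosen after the data were seen were the alternatives for the counts by FDR alone, for the interaction count of the pathway genes, for single named pathway genes, and for marker and pathway genes without MO5 or WO4. Part of the microglial and oligodendrocyte marker results, and the sums of those 2 lists, are not reported here.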

Additional observations from a re-analysis of the deposited data

Results flagged for a closer look

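In MO the highest mouse for *Xist* was MO5 at 3.21 log2(1 + FPKM). Its gap to the next mouse, at 0.26, was 0.826 of the range of the group. In MO the lowest mouse for *Ddx3y* was also MO5, at 1.95, with the next mouse at 4.30 and a gap of 0.851 of the range. In WO the lowest mouse for *Mbp* was WO4 at 5.36, with the next at 12.42 and a gap of 0.797 of the range. Each exceeded the critical value of Dixon's test for 5 mice, which chance passes in about 1 in 20 groups. These mice had already stood apart for these genes when the labels were checked, so that rate gives no measure of chance for them. In the 10 genes described, 0 of 20 groups (WO and MO of each gene) exceeded it, and 6 groups of marker genes were tested beside them.

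The change from young to old differed between G118V and control mice by limma's interaction test in 4 of the 10 genes past both thresholds, beside 4.65% of all genes in that direction, and in 5 by the FDR alone, beside 17.7% of all genes. The differences, G118V minus control, were 0.60 for *Nfe2l2*, 1.58 for *Hmox1*, 0.41 for *Nqo1*, 1.59 for *Mt1* and 1.35 for *Mt2*. That of *Nqo1* passed the FDR alone.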

How the results depend on the processing

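Over the 4 comparisons and the interaction, the alternatives gave 910 values for the 10 genes, of which 901 kept their status as changed or not by FDR and fold, 9 no longer passed both and 0 newly passed both. By the FDR alone 885 of the 910 kept their side, 23 no longer passed and 2 newly passed. A sign changed in 48 of the 910, all where the gene did not pass both thresholds either way. Of 230 counts 228 stayed within 1.5 times the count reported. Under treat against a fold change of 1.2, the interaction was passed by 4 pathway genes and, counted by FDR alone, by 3 of the 10 genes, since treat asks for more than any difference. Under treat *Nqo1* in MY vs. MO (FDR 0.0818) and the *Nfe2l2* interaction (FDR 0.0815) did not pass. *Nqo1* in WO vs. MO had an FDR of 0.0663 in batch 2 alone, and *Srxn1* had 0.161 in batch 1 and 0.127 in batch 2. The 10 named pathway genes gave 610 values, of which 553 kept that status, 38 no longer passed both, 19 newly passed both and 0 reversed.

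With the replicate block, 5 of the 10 genes changed in MY vs. MO, 4 in WO vs. MO, 4 in the interaction, and 0 in WY vs. WO and in WY vs. MY. Of the pathway genes 11, 9, 9 and 0 changed in MY vs. MO, WO vs. MO, the interaction and WY vs. WO. Mice with the same number correlated at 0.0853 to 0.177 in MY vs. MO, -0.207 to 0.0913 in WO vs. MO, -0.129 to 0.377 in WY vs. WO and -0.2 to -0.0194 in WY vs. MY. The own number was the best match in 3 of 3, 1 of 5, 2 of 3 and 0 of 3 mice, so the numbers were not taken as pairs.

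With each mouse left out in turn, the number of the 10 genes changed ran from 4 to 5 in MY vs. MO, stayed at 4 in WO vs. MO and ran from 3 to 4 in the interaction.

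Limits are the small groups, 3 mice in each young group, and 1 transgenic line per genotype. Uncorrected values were not used here, so the effect of the batch correction on single genes is unknown. Whole cord gives no cell of origin. RNA levels say nothing of protein or of NRF2 activity. The sex label of MO5 and the low *Mbp* of WO4 were not resolved. Reads behind single genes are unknown, so low levels such as those of *Slc7a11* carry an unknown counting error.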

Other observations

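With age in the control line, 2 of 6 genes that supply NADPH passed the FDR alone with lower levels in WO than in WY, beside 1.12% of all genes in either direction. They were the 2 of all 63 pathway genes that passed the FDR there, so the other 6 lists held 0 by limma, and they were named after their values were seen. *Taldo1*, the transaldolase of the pentose phosphate pathway, was lower in WO (-0.46, 95% CI -0.60 to -0.32, limma FDR 0.0167), and *Idh1*, the isocitrate dehydrogenase of the cytosol, was lower too (-0.38, 95% CI -0.51 to -0.26, limma FDR 0.0215). All 5 WO mice were below all 3 WY mice for both genes. Without WO4 the differences were -0.49 and -0.41. Of 6 astrocyte markers 2 passed the FDR and were also lower in WO, *Aqp4* (-0.65, limma FDR 0.0281) and *Gfap* (-0.54, limma FDR 0.0345), whereas *Gjb6* was higher by 0.29 without passing (limma FDR 0.205). The oligodendrocyte markers *Mog* (-0.77, limma FDR 0.0178) and *Mag* (-0.36, limma FDR 0.0239) were lower in WO too, and *Mobp* (-0.22, limma FDR 0.296) and *Mbp* (-1.63, and -0.12 without WO4) did not pass. Both *Mbp* values mix the batches, and within batch 1 *Mbp* ran from 12.42 to 12.61 in WO and from 12.92 to 13.23 in WY. The part of these cells in the lower *Taldo1* and *Idh1* was not tested. Neither *Taldo1* nor *Idh1* reached a 1.5-fold change, and neither passed in MY vs. MO, at -0.08 (95% CI -0.34 to 0.18) and -0.20 (95% CI -0.47 to 0.07). Their interactions, 0.38 (limma FDR 0.0702) and 0.18 (limma FDR 0.405), did not pass.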
